A study of Homo sapiens with 38 samples.

Results

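GATA3 binding was described here gene by gene in stimulated Jurkat cells, an established human T-cell acute lymphoblastic leukaemia line. The regions were every line of the list that stands for the group carrying a control lentivirus (Ctrl_LV) and immunoprecipitated for GATA3, 29009 regions of 168784 in the 3 lists used here. The other 2 lists came from the same kind of cells, also with the control lentivirus, and were made for BHLHE40 (26205 regions) and for the histone mark H3K27ac (113570 regions). The series holds 38 samples in 19 groups of 2. All cells of these 3 groups received PMA (50 ng/ml) together with ionomycin (500 ng/ml) to mimic T-cell receptor stimulation, for 5 hours in the sample labels and for 2 hours in the treatment protocol, a difference that was not resolved. Cells with the edited element or with over-expressed BHLHE40 were not analysed here.

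GATA3 is a zinc-finger transcription factor that binds short DNA sites with GATA at their core. It is needed from the earliest steps of T-cell development, helps commit thymocytes to the T lineage, and later drives the helper T-cell type that makes IL-4, IL-5 and IL-13. In T-cell leukaemia it works together with TAL1, LMO2, E proteins, RUNX1 and ETS factors at shared enhancers. H3K27ac marks active promoters and enhancers. BHLHE40 is a basic helix-loop-helix repressor that binds E-box sites and is induced when T cells are activated.

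Each region was placed by its summit, the base of highest enrichment, and was given to the nearest protein-coding gene record within 100 kb (RefSeq on GRCh38). The strength of a region is the authors' signal value, which ranks regions within this list and whose reference scale is not stated. A list covers the pair of samples in its group, so no spread between samples exists, and the intervals below (95%, Wilson) cover counting error only. Regions and genes are not replicates, and nearness gives a position, not proof of a target. As a check of the cell type, all 11 T-cell marker genes had H3K27ac regions and 9 had GATA3 regions (46 in all, none at CD3G or CD7). The erythroid markers HBB, KLF1 and ALAS2 and the hepatocyte markers ALB, APOA1 and TTR had no GATA3 region. Markers of other cells were not all empty. GATA3 regions were found at 4 of 6 B-cell markers (8 regions), at 2 of 3 neuron markers and at 1 of 5 myeloid markers. H3K27ac regions were found at 4 of 6 B-cell markers (22 regions) and at 1 of 4 erythroid markers (10 regions). They were also found at 2 of 3 neuron markers (5), 2 of 5 myeloid markers (4) and 2 of 3 hepatocyte markers (3).

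The sequences below show what lay under GATA3 summits at gene starts, where reference sequence was at hand. They are the 8 with the strongest summits in promoter windows, which run from 250 bases before to 50 bases after a start (RefSeq, GRCh38.p14), among stretches that touched no other gene record, with DSE passed over because its stretch was 13 bases long. Each is printed 5′ to 3′ along the gene and reaches up to 50 bases on either side of the summit, with GATA, or its reverse complement TATC, in capitals. SDE2 encodes a protein of genome maintenance and splicing, IL9R the receptor for interleukin 9, EBP an enzyme of sterol synthesis, TUT1 a terminal uridylyltransferase and ELOVL5 a fatty acid elongase.
SDE2: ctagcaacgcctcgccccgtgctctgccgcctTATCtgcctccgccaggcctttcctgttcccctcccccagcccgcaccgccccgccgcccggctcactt
IL9R: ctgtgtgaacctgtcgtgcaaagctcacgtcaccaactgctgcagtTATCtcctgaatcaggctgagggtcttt
RGPD8: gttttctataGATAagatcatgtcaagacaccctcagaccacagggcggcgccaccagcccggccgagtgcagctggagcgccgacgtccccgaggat
EBP: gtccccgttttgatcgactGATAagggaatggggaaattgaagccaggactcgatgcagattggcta
RBM27-POU4F3: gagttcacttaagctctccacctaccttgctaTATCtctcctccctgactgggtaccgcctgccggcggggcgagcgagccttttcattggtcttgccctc
STK40: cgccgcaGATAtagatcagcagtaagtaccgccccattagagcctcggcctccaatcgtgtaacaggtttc
TUT1: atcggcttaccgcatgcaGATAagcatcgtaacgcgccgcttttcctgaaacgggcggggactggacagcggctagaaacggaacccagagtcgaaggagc
ELOVL5: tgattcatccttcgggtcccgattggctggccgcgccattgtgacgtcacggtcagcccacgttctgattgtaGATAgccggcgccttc

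The SDE2 stretch is chr1:225999452-225999552 on the minus strand, with a signal value of 204 and the summit 159 bases before the start. Its GATA match is centred 16.5 bases from the summit. IL9R (chrX:155997622-155997695, plus strand) had a signal value of 125 and a match 2.5 bases from the summit; the gene lies where X and Y are near-identical, so its reads can belong to either copy. EBP (chrX:48521558-48521624, plus strand) had 121 and a match at 4.5 bases.

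Among the other promoters the distance of the match varied more. RGPD8 (chr2:112433646-112433743, minus strand) had a signal value of 123 with a match at 38.5 bases and no H3K27ac region; it belongs to a family of near-identical genes, so its reads are uncertain. RBM27-POU4F3, a readthrough record (chr5:146203406-146203506, plus strand), had 107 and a match at 16.5 bases, and STK40 (chr1:36386104-36386174, minus strand) had 105 and one at 11.5 bases. TUT1 (chr11:62591641-62591741, minus strand) had a signal value of 100.2 and a match at 30.5 bases. ELOVL5 (chr6:53348951-53349039, minus strand) had 99.3 and a match at 24.5 bases. All 8 stretches held a GATA, and the shares over all windows follow.

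The full GATA site was most frequent in promoter windows with the strongest GATA3 summits, and most windows lacked it at any strength. Of 22055 promoter windows, 1498 (6.79%) held a GATA3 summit. The full site AGATAA, searched on both strands (TTATCT on the other), stood in 11.3% of them (9.84 to 13.1) and in 7.93% of all windows of the same length. Split into quartiles by signal value, the share was 6.40%, 5.35%, 9.89% and 23.7% from weakest to strongest. The strongest quartile spans signal values of 11.9 to 239 and is the one that stands apart, since the intervals of the other 3 overlap. The bare core GATA, which also occurs inside every AGATAA, stood in 42.4%, 42.5%, 49.7% and 66.9% of the same quartiles and in 43.6% of all windows.

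The comparison group matters for this count. Windows with H3K27ac and no GATA3 summit held AGATAA in 3.42%, and windows with neither in 10.8%. Of the windows with a GATA3 summit, 93.7% had H3K27ac. The distance between the summit and the nearest GATA, where a window held one, had a median of 49.5 bases in the weakest quartile (159 windows) and 24.5 bases in the strongest (251 windows). A GATA lay within 25 bases of the summit in 34.7% of all strongest-quartile windows and in 10.9% of the weakest.

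The ETS-type site CCGGAAG, searched on both strands and chosen after the data had been seen, ran the other way. It stood in 36.0%, 31.0%, 27.3% and 23.5% of the quartiles from weakest to strongest, in 12.8% of all windows, and in 21.0% of those with H3K27ac alone. ETS factors such as ETS1, FLI1 and GABPA bind this sequence at the promoters of broadly expressed genes. RAD50, a DNA repair gene whose record holds the locus control region of the type 2 cytokine genes, is an example: its promoter summit had a signal value of 6.60 and lay 36 bases before the start, 52 bases from a CCGGAAG shown in capitals (chr5:132556866-132556967, plus strand).
RAD50: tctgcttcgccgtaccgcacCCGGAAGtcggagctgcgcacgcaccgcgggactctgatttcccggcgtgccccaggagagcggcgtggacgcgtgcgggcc

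Other sites showed no such order. The E-box CACGTG stood in 11.5%, 11.0%, 12.8% and 10.9% of the quartiles, and the RUNX-type site TGTGGT in 13.3%, 13.9%, 12.0% and 13.1%. The spaced pair of CANNTG and GATAA known from TAL1 complexes (7 to 9 bases between them) was found in 9 windows with a summit (0.601%) against 0.358% of all windows, too few to rank.

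**Figure D1:**
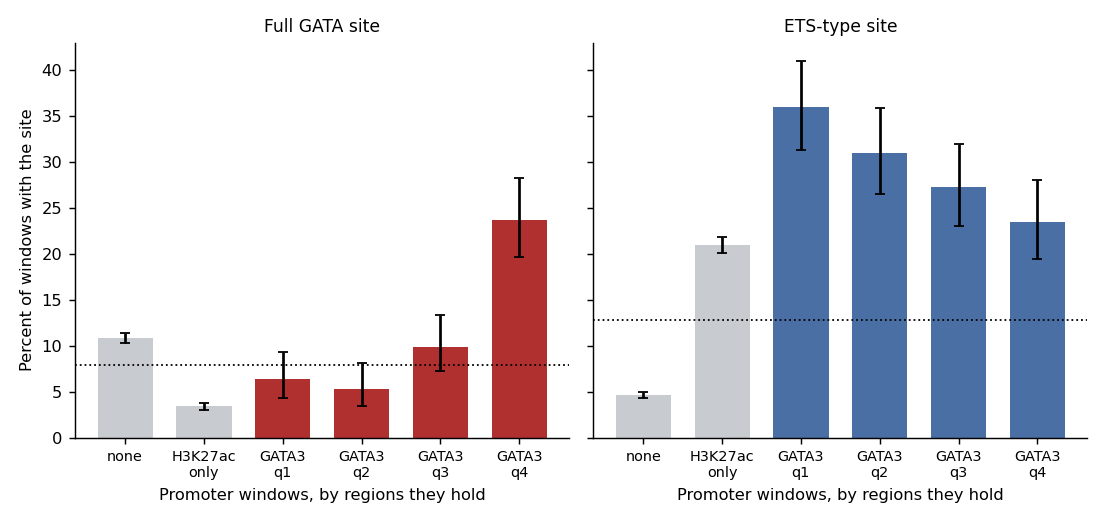
Percent of promoter windows that hold the full GATA site AGATAA (left) or the ETS-type site CCGGAAG (right), on the y axis, for windows with neither a GATA3 summit nor H3K27ac, with H3K27ac alone, and with a GATA3 summit in quartiles q1 (weakest) to q4 (strongest) by signal value; error bars are 95% Wilson intervals and dotted lines mark all windows. The GATA site reaches 23.7% in q4 against 6.40% in q1, while the ETS-type site falls from 36.0% to 23.5%.

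Across the genome, 25430 of the 29009 summits (87.7%, 87.3 to 88.0) had a protein-coding gene within 100 kb. Of all summits, 16135 (55.6%) lay inside a gene record, and those outside were a median of 14397 bp from the nearest one. At least 1 region was assigned to 9865 of 20037 protein-coding genes, or 49.2%, and exactly 1 to 4617. At least 3 regions were assigned to 3088 genes (15.4%), at least 10 to 283 (1.41%) and at least 20 to 41. The 283 genes with 10 or more held 4173 regions, 16.4% of those assigned, and the 1000 densest genes held 35.6%. A share of 9.91% of genes had a region in the top decile of the list, a signal value of about 34.1 or more.

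Genes with many regions more often held a strong one. The strongest region had a median signal value of 10.8 in genes with 1 region, 18.8 with 2 to 4, 35.0 with 5 to 9 and 63.0 with 10 or more. Of the last group, 240 of 283 genes (84.8%) reached the top decile, against 338 of 4617 (7.32%) of genes with 1 region. A gene with more regions has more chances to hold a strong one, and the median signal value over the regions themselves was close in all 4 classes, from 10.8 to 11.4.

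The gene with most GATA3 regions was CDK6, a cyclin-dependent kinase that drives the G1 phase and is a known dependency of T-cell leukaemia. It had 51 regions, 46 of them inside its record (chr7:92604921-92836573), and 28 overlapped a BHLHE40 region. That is near the share over all assigned regions, 50.3%. Most CDK6 regions were weak: the median signal value was 8.52, and a single region at 126.5 stood far above the next, 34.3. The annotation used gives gene records only, so exons, introns and untranslated regions were not told apart.

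BACH2 followed with 44 regions and led all genes by summed signal value (913). It encodes a repressor that keeps lymphocytes from effector differentiation. Its 2 strongest regions, at 115 and 103, lay inside the record, 57193 and 62744 bp from the nearest gene start, and 7 of its regions were in the top decile of the list. CDK6 had 2 in that decile, so the pair differs in strength more than in number.

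CHST11, a chondroitin sulfotransferase, and VAV3, an exchange factor for small GTPases, had 39 regions each. Their summed signal values were 643 and 468, and the strongest regions were 90.3 and 40.1. VAV3 is thus a locus of many weak regions, with 1 in the top decile. SSBP2 had 38 regions; it encodes a partner of LDB1, the protein that links GATA and LIM-only factors. ARID5B, a DNA-binding protein and TAL1 target in T-cell leukaemia, had 36.

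RUNX1, a core factor of T-cell and leukaemia enhancers, had 35 regions, 26 of them over BHLHE40 regions. KLF12, a zinc-finger repressor, also had 35, but only 11 were over BHLHE40 regions. These are the extremes of sharing among the genes with 35 or more regions, beside 50.3% of all assigned regions. The next genes were GNAQ with 31 (a G-protein subunit), TOX with 30 (a nuclear factor of thymocyte selection) and SUPT3H with 30 (a subunit of a histone acetyltransferase complex).

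The protein kinase C genes PRKCA and PRKCH had 29 and 28 regions; the enzymes are activated by diacylglycerol and by PMA, the agent used here. AHI1, the neighbour of the leukaemia gene MYB, had 27, and ETS1 had 27. IKZF2 (Helios, an Ikaros family factor) had 26, RGS6 (a regulator of G-protein signalling) and ITGA1 (the alpha-1 chain of a collagen-binding integrin) 25 each, and MGAT5 (an N-glycan branching enzyme) and PELI2 (a ubiquitin ligase of innate signalling) 24 each. Among these 20 densest genes, RUNX1, TOX, ETS1 and IKZF2 also belong to the list of T-cell lineage transcription factors described below.

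ITGA1 had a layout of its own. Of its 25 regions, 1 lay inside the record, and 24 lay within 100 kb outside it, all of these before the start. They were packed closely, with a median gap of 2.14 kb, against 4.26 kb in CDK6 and 14.7 kb in RGS6. The strongest 2, at 92.1 and 82.1, lay 62328 and 60670 bp before the start. The 100-kb window with these 24 regions also held the protein-coding record PELO and the noncoding record PELO-AS1. Giving the regions to ITGA1 thus rests on the rule for the nearest record. Over the 20 genes together, 507 of 643 regions (78.8%) were inside the records.

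**Figure D2:**
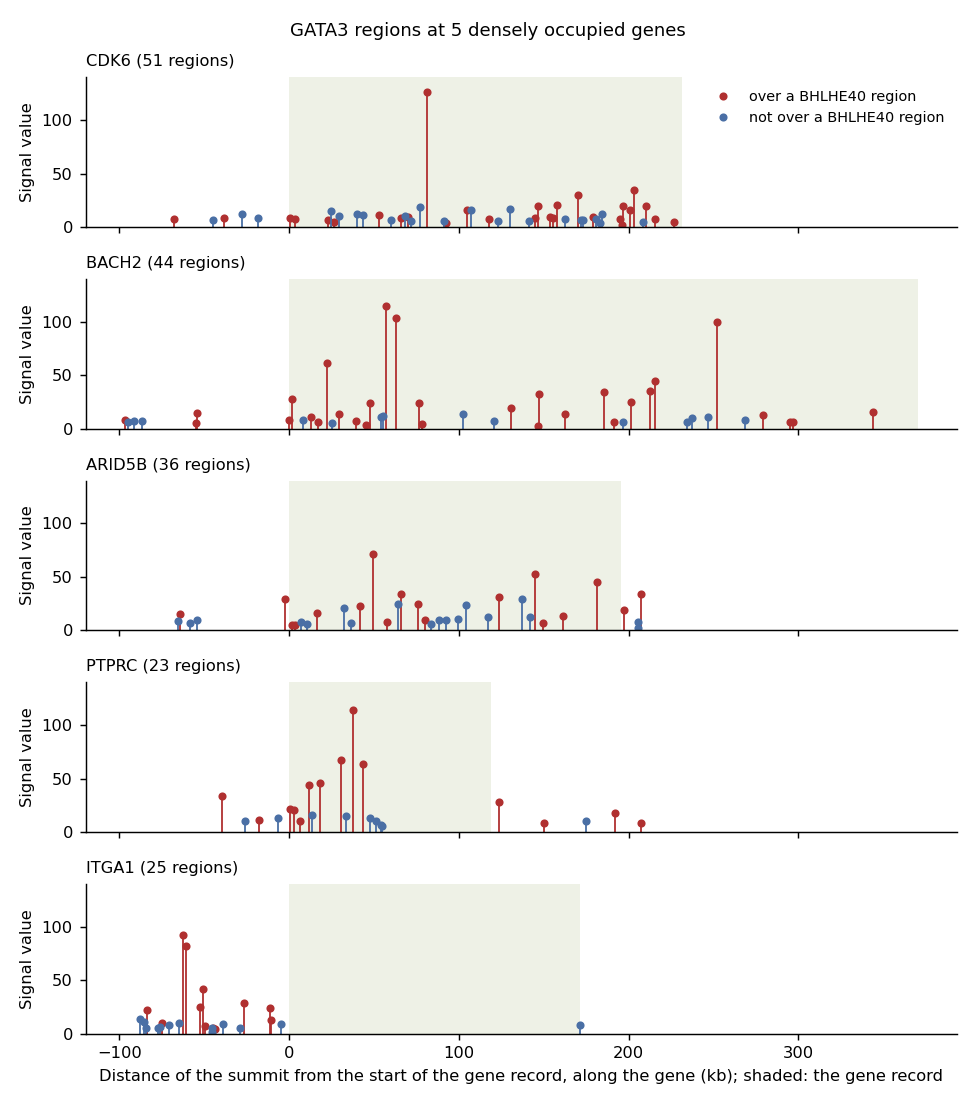
Signal value of every GATA3 region (y axis) against the distance of its summit from the start of the gene record, along the gene in kb (x axis), for 5 densely occupied genes; red regions overlap a BHLHE40 region, blue ones do not, and the shaded band is the record. CDK6 shows 1 tall region of 126.5 among 51, BACH2 several tall regions, and 24 of the 25 ITGA1 regions lie in front of the gene.

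Large genes collect regions, so number alone favours them. The 20 densest genes had a median record length of 315 kb, against 24.1 kb for all genes. Across genes, region number and the stretch of genome nearest to a gene rose together (Spearman's rank correlation 0.49, n = 20037 genes, given as a description). Scaled to that stretch, the list held 1.22 regions per 100 kb over all genes.

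By that density, among genes with at least 5 regions, only CDK6 (15.0 per 100 kb) stayed among the first 20. The leading genes were small: C1orf162 with 38.5, HCAR1 (a lactate receptor) with 23.8 and DUSP2 (a nuclear phosphatase of MAP kinases, induced on T-cell activation) with 20.8. OR10T2, an olfactory receptor gene beside the CD1 genes, had 19.4. CD69, CCR8 and SH2D1A, T-cell genes for an activation antigen, a chemokine receptor and the SLAM adaptor SAP, had 18.9, 18.8 and 18.2.

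The rest of the densest genes were a mix of T-cell and other genes. IL26, a cytokine gene beside IFNG, had 17.9 and TGFBR2, a TGF-beta receptor with all 17 of its regions inside the record, 16.3. SLC7A6, IL3 and CD40LG had 16.2, 15.6 and 14.8. IL3 is a cytokine of activated T cells, and CD40LG gives help to B cells.

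Summed signal value gave yet another order. After BACH2 came TOX with 771, FLI1 with 678 and ARID5B with 660. FLI1, an ETS factor, had 21 regions, and its strongest were 153 and 138. MACROD2 reached 619 with 12 regions spread over a record of 2058 kb, and RUNX2 594 with 16. Of the first 20 genes by summed signal, 10 were also among the first 20 by number.

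PTPRC, which encodes the phosphatase CD45, reached 595 with 23 regions. PRKCQ, the protein kinase C of the T-cell synapse, reached 582 with 20, and its strongest region, at 167, lay 85441 bp outside the record. S1PR1, the receptor that lets lymphocytes leave lymphoid organs, reached 498 although its record is 5.42 kb long, because 15 of its 16 regions lay outside. CD226, an activating receptor, reached 531 with 16.

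**Figure D3:**
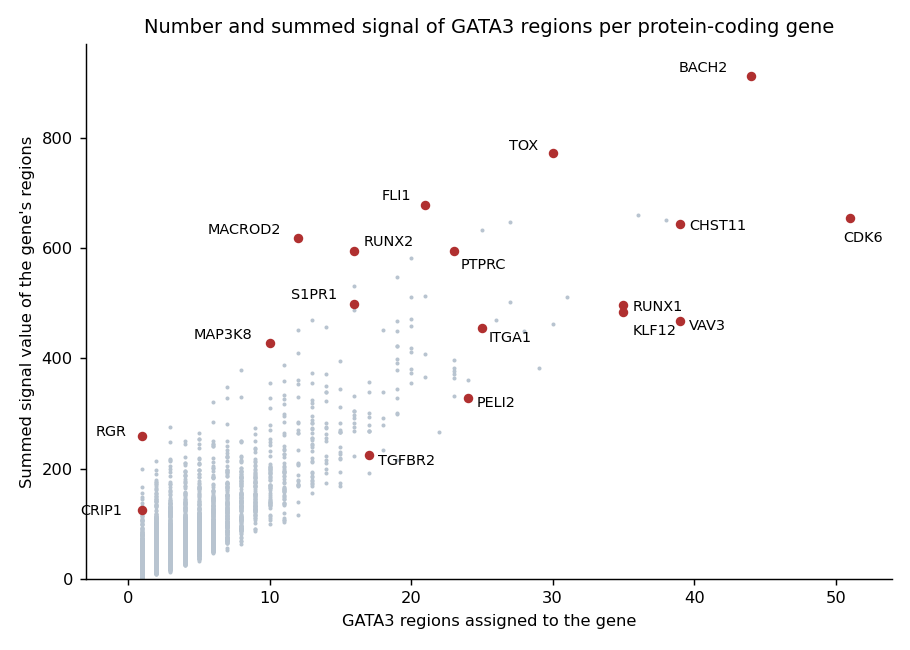
Each point is a protein-coding gene with at least 1 GATA3 region, placed by the number of regions (x axis) and by their summed signal value (y axis, the authors' unit); red points are named. CDK6 is farthest to the right with 51 regions and BACH2 highest with 913, while RGR reaches 259 with 1 region.

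Single strong regions were mostly at other genes than the dense ones. Of the 20 strongest regions, with signal values of 190 or more, 2 belonged to genes among the 20 densest (TOX at 213 and AHI1 at 201). All 20 overlapped a BHLHE40 region and 19 an H3K27ac region. The shares were 50.3% and 51.0% over all assigned regions, and 90.2% and 75.1% in the top decile. Of the 20, 8 lay inside a protein-coding record, and 3 had no such gene within 100 kb. Besides the pair just named, genes beside them included RUNX2 (230), a runt factor, CDC73 (210), a subunit of the PAF1 elongation complex, and ITGB3 (198), an integrin chain. The strongest of all were at MAP3K8 (269), a kinase of the NF-kB and MAP kinase pathways, inside its record, and 1990 bp from GLG1 (264), a Golgi glycoprotein gene. Of the remaining ones, those of MACROD2 (201), LOC124902694 (199) and MAN1C1 (190) lay inside the records. The summit given to LOC124902694 also lay inside the record of KLC2, another protein-coding gene. Those of HTR5A (239) and SDE2 lay 54 and 159 bp outside. Farther from the named record were those of DAD1 (8356 bp), C1D (209, 27094 bp), KDM8 (199, 29328 bp), RGR (33886 bp) and DNAJC5B (234, 59101 bp). The summits given to DAD1, C1D, KDM8 and RGR fell inside long noncoding records.

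The 10 strongest regions within 1 kb of the start or end of a record were at genes of varied roles. HTR5A, a serotonin receptor gene, and SDE2 led and were also among the 20 strongest. After LOC124902694 came ARHGDIB (185), an inhibitor of small GTPase signalling abundant in blood cells, and NAA38 (163), a subunit of an N-terminal acetyltransferase. HCAR1 (158), CD84 (150, a SLAM family receptor), PSAP (138, the saposin precursor), IL9R (125) and CRIP1 (125) completed them.

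A gene name can mislead here. The region at DAD1 (chr14:22555315-22557824, signal value 242) lay 4419 bp from TRAC, the constant segment of the T-cell receptor alpha chain, which is not a protein-coding record in the table and so could not be assigned. The enhancer of that chain is known to lie between TRAC and DAD1. Within 20 kb of TRBC1, a constant segment of the beta chain, there were 5 regions. The strongest, at 135, lay 15768 bp from that segment and was assigned to PRSS2. No region lay within 20 kb of TRDC or TRGC1, of the delta and gamma chains. Other constant segments of the beta and gamma chains were not examined.

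Strong regions at genes with nothing else were also seen. Of the 4617 genes with exactly 1 region, the strongest after RGR (259) were LOC124902694 (199), NT5DC4 (167), C18orf63 (155) and TXNRD2 (148). The regions of RGR, NT5DC4 and C18orf63 lay outside the records. That of LOC124902694 could as well be given to KLC2, whose record also holds the summit. E2F2, a cell-cycle transcription factor, had 1 region at 115. CRIP1, a small LIM-domain protein gene, had 1 at 125, which overlapped neither a BHLHE40 nor an H3K27ac region. Among the 100 strongest regions, 97 overlapped BHLHE40 and 95 H3K27ac, and the CRIP1 region, of rank 128, came after them. Over the whole top decile the shares were 90.2% and 75.1%.

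Some of the most crowded stretches held no protein-coding gene. The 100-kb window with most summits was in CDK6 (25). VAV3 and the stretch before ITGA1 had 24 each. The window chr6:21976354-22076353, inside the long noncoding gene CASC15, had 23 regions, the strongest at 124, and none had a protein-coding gene within 100 kb. The window chr1:198956064-199056063 had 22, with a strongest value of 96.3.

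That second window holds the long noncoding records LINC01222 and LINC01221 and lies outside MIR181A1HG, at higher coordinates. MIR181A1HG is the host gene of the microRNAs miR-181a and miR-181b, which tune T-cell receptor sensitivity in thymocytes and lie on the minus strand. The record of MIR181A1HG (chr1:198808003-198937429) held 12 regions, the strongest at 40.4, and 19 more lay within 100 kb beyond it, up to 96.3. The 2 mature microRNAs made from its 5′ arms share their seed, given in capitals (RefSeq, GRCh38.p14).
hsa-miR-181a-5p: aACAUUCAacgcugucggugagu
hsa-miR-181b-5p: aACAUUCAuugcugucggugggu

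The gene lists below group genes by role, and each is given beside the share of all genes (49.2% with at least 1 region, 15.4% with at least 3, 1.41% with at least 10, and 9.91% with one in the top decile). The lists were chosen with earlier results of these data known, so their counts are descriptions.

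All 26 T-cell lineage transcription factors had a GATA3 region, 23 had at least 3, 11 at least 10 and 16 one in the top decile. Their median was 8.5 regions, against 0 over all genes. They are also spread out, with a median of 220.5 kb of nearest genome against 55 kb, and their density was 4.81 per 100 kb against 1.22. That density was not particular to them. It was 4.56 in housekeeping genes, 4.32 in cytosolic ribosomal protein genes and 6.54 in T-cell surface genes. Among the lineage factors, RUNX1 (35), TOX (30), ETS1 (27), IKZF2 (26), FLI1 (21) and IKZF1 (19) led by number.

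Number and strength parted within this group. ZBTB7B, which directs CD4 T-cell fate, had 4 regions but 1 at 165, and CBFB, the partner of RUNX proteins, had 4 with 1 at 123. LEF1, a factor of the Wnt pathway and of T-cell development, had 12 regions, all inside its record, with 1 at 153. By contrast TCF7, its close relative, had 2 with a strongest value of 11.2, and BCL11B, needed for T-cell commitment, had 3 with 17.0. BCL11A had 1, at 8.08.

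T-cell receptor signalling genes followed: 29 of 30 had a region, 22 at least 3, 9 at least 10 and 20 one in the top decile. Among the kinases, LCK, which starts the cascade, had 4 weak regions (10.5 at most), ZAP70 had 2 (70.8 at most) and FYN 11 (46.2). Among adaptors, PAG1 had 22 regions, NCK2 12 and LCP2 7. PLCG1, the phospholipase that splits membrane lipid into second messengers, had 4, the strongest at 123. UBASH3B, a phosphatase that dampens the cascade, had 10, all inside the record, with 1 at 135. SH2D2A had none.

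At T-cell surface genes, 17 of 20 had a region and 12 at least 3. The costimulatory receptor CD28 had 18 regions and a strongest value of 138, 2307 bp beyond its record. CD44, an adhesion receptor, had 19 (70.6 at most). The CD3 chains were modest: CD3D had 3 regions (32.4 at most), CD3E 2 (9.79) and CD247 5 (69.3). IL2RA, the inducible chain of the IL-2 receptor, had 9 regions but none above 12.4. CD3G, CD27 and CD7 had none.

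Of 24 genes for TAL1 complex members and their targets, 19 had a region and 14 at least 3. CDK6, ARID5B, AHI1, TCF12 (23), ETV6 (17), HBS1L (14) and MYB (14) had 10 or more. TCF12 is the E protein HEB. The oncogenes TAL1 and LMO2 had 4 and 3 regions, with strongest values of 54.4 and 45.4, and TRIB2, a pseudokinase, had 6 (46.1). LDB1, LYL1 and STAT5A were among those with none.

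Among 12 GATA factors and cofactors, 9 had a region and 4 at least 3. GATA3 itself had 9. ZFPM1 (FOG1) and ZFPM2 (FOG2), zinc-finger partners of GATA proteins, had 2 and 7 regions, and ZFPM1 had the strongest of the group, 129, inside its record. GATA2 had 4 (46.9 at most). GATA1, GATA5 and GATAD1 had none. The density of the group, 1.33 per 100 kb, was close to that of all genes.

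Helper T-cell genes had regions in 23 of 26 and at least 3 in 12. The strongest were not at the type 2 cytokines that GATA3 is best known for: IL4 had 1 region (7.56), IL13 1 (13.7) and IL5 2 (20.0 at most). RAD50, beside them, had 5 (16.0 at most). IL2 had 8 regions, of which the strongest, at 144 and 141, lay 51510 and 46714 bp outside its record, and its neighbour IL21 had 10 (63.8 at most), all outside. RORA, a nuclear receptor, had 15 and STAT3, a cytokine-activated factor, 4 with 1 at 103. TBX21, FOXP3 and PTGDR2 had none.

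Thymocyte stage genes had regions in 16 of 20. CXCR4, the receptor that guides thymocyte progenitors, had 17 (39.4 at most), ARPP21 11, and CD1B, a lipid-presenting molecule of cortical thymocytes, 8 (102 at most). RAG1 had 3 (11.9 at most) and DNTT, which adds bases during receptor rearrangement, 3 (59.3). NOTCH1 had 1, at 9.03. The promoter window of RAG2 held a summit of 48.9, which fell inside another record and was not given to RAG2. PTCRA, ADA, CCR9 and NOTCH3 had none.

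Genes of the response to stimulation were widely occupied. Of 28 immediate-early genes, 25 had a region, 15 at least 3 and 0 at least 10. FOS had 9 (47.3 at most), JUN 5 (73.7) and EGR2 4 (63.3). IER3, an early survival gene, had 5 with 1 at 166, while EGR1 had 1 at 5.81. NR4A2, EGR4 and FOSL1 had none.

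Of 28 effector, NF-kB and NFAT genes, 23 had a region and 11 at least 3. TNFAIP3 (A20, which shuts off NF-kB signalling) had 21 regions, NFKB1 17, FASLG 15 and MAP3K8 10. CSF2 and IL3, neighbouring cytokine genes, had 8 and 5, with strongest values of 53.2 and 79.9. TNF had 1 (13.7) and NFKBIA 1 (11.3). CCL3, CCL4, CXCL8, LTB and NFKBID had none.

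Homing and adhesion genes had regions in 15 of 18 (ITGA6 17, S1PR1 16 and ITGA4 15 at the top; none at ITGB7, ICAM1 or ICAM3). Apoptosis genes had them in 15 of 17, led by BCL2L1, which encodes BCL-XL, with 9 (79.7 at most), then BIRC3 with 7; BID and BIRC5 had none. Of 18 cell-cycle drivers, 11 had a region: after CDK6 and MYB, both also counted above, came RB1 with 8 and CCND3 with 6. CDK2, CDK4, CDKN1B, CDKN2C, CDKN2D, CCNE1 and CCNE2 had none.

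Signal regulators were mixed. Of 30 interleukin receptor genes, 20 had a region and 10 at least 3, led by IL23R with 10 and IL2RA with 9; IL9R had 3. Those without one were IL2RG, IL3RA, IL5RA, IL11RA, IL13RA1, IL13RA2, IL15RA, IL17RB, IL22RA1 and IL27RA. Of 30 DUSP, SPRY and SPRED genes, which restrain MAP kinases, 17 had a region and 10 at least 3, led by DUSP10 with 19 and SPRED2 with 13. The 13 without a region were DUSP3, DUSP7, DUSP8, DUSP9, DUSP11, DUSP15, DUSP18, DUSP21, DUSP26, DUSP29, SPRY2, SPRY3 and SPRED3.

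Among gene lists of other lineages, erythroid and myeloid genes had a region less often than all genes. B-cell and mammary genes were near the share of all genes, on lists of only 16 and 12 genes. Of 18 erythroid and mast cell genes, where the related factors GATA1 and GATA2 act, 4 had a region (HBD, KIT, GYPB and TFRC, 1 each) and 0 had at least 3. The globin genes HBB, HBG1, HBG2, HBA1 and HBA2 had none, nor did EPOR, KLF1, SLC4A1, ALAS2, EPB42 and the mast cell genes CPA3, MS4A2 and TPSAB1. Of 16 myeloid genes 4 had one, led by ITGAM with 4; those without one were CSF3R, FCGR1A, S100A8, S100A9, MRC1, LYZ, CD68, MPO, ELANE, CEBPA, CD33 and CD14. Of 16 B-cell genes 9 had one, 3 had at least 3 and 3 had one in the top decile, led by VPREB1 with 7, EBF1 with 3 and CR2 with 3, while CD79A, CD79B, FCER2, IGLL1, VPREB3 and BTK had none. Of 12 luminal mammary genes, the setting of GATA3 in breast epithelium, 5 had one, and only XBP1 had at least 3 (5). ESR1, TFAP2C, PGR and AGR2 had 1 or 2.

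The mammary genes without a region included ELF5, KRT8, KRT18, KRT19, FOXA1 and TFF1. Hepatocyte and neuron genes had one in 9 of 18 and at least 3 in 3 (GAD1, NEUROD1 and SYT1), close to all genes, with none at F2, APOA1, APOB, SERPINA1, TTR, ALB, FGB, STMN2 and GRIN1. Densities in these 5 groups ran from 0.375 to 1.13 per 100 kb, below the 1.22 of all genes. Large clustered families were lower still by count: 61 of 390 olfactory receptor genes had a region, 15 of 149 keratin-type genes, 4 of 39 HOX genes and 0 of 53 protocadherin genes, whose nested records leave little genome nearest to each.

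Genes expressed in all cells formed another pattern, with many genes holding a region near a gene start, their own or that of another gene. Of 87 cytosolic ribosomal protein genes 78 (89.7%) had a region and 10 (11.5%) at least 3, near the 15.4% of all genes. Little genome is nearest to these genes, a median of 16 kb against 55 kb. Their density was 4.32 per 100 kb against 1.22. A region within 1 kb of any gene start was found in 60 of the 87, against 3046 of all 20037 genes. Such regions made up 48.5% of those assigned, against 12.8% over all genes. RPL34 had the most, 11 regions. Housekeeping genes had one in 15 of 18 and at least 3 in 3, among them PGK1 and TUBA1B; GAPDH, LDHA and HPRT1 had none.

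Other such families sat between these. Mitochondrial ribosomal protein genes had a region in 45 of 77 (MRPS27 and MRPS6 led with 5 each) and proteasome genes in 25 of 39 (PSMA1 led with 10). RAB genes (29 of 63, RAB8B with 10) and genes with ZNF symbols (217 of 509, ZNF609 with 14) were near or below the share of all genes.

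**Figure D4:**
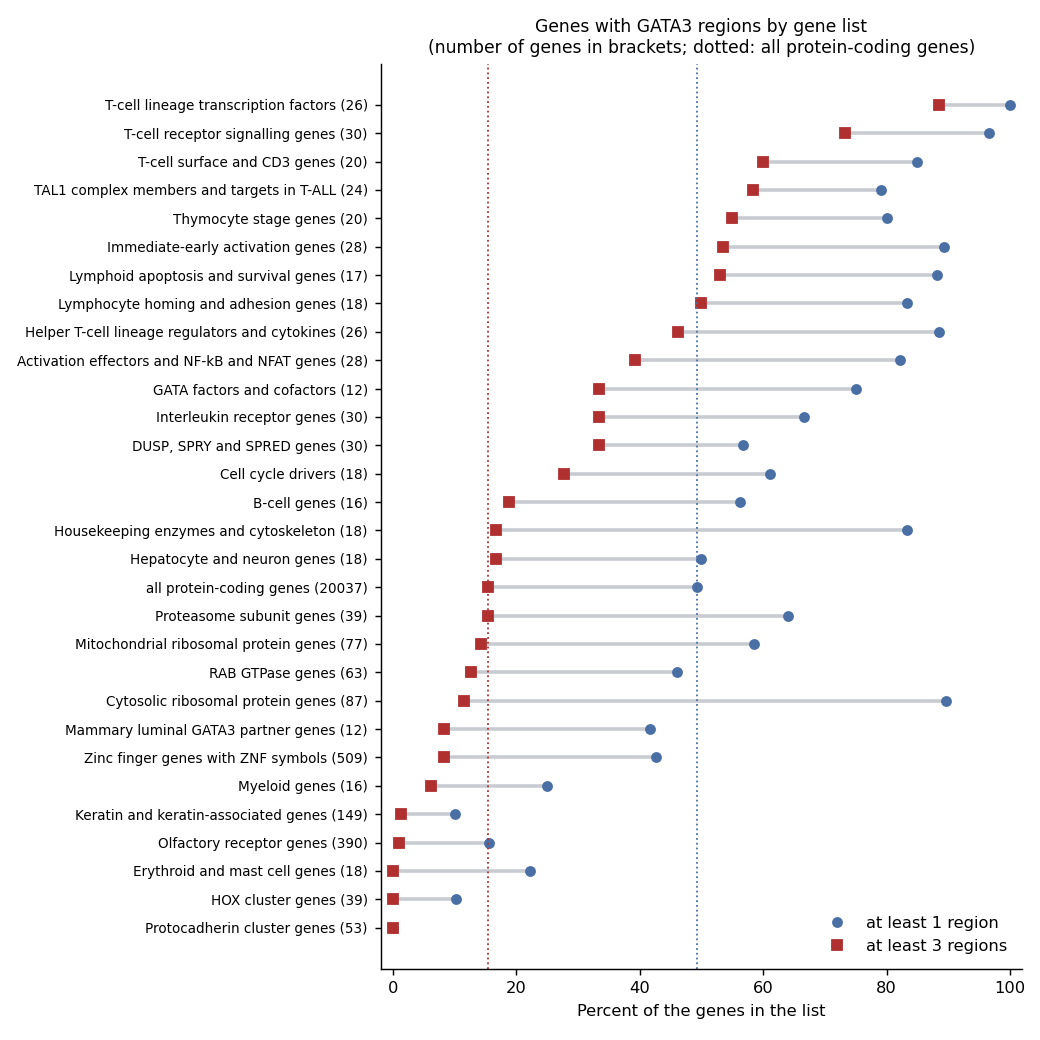
Percent of genes (x axis) with at least 1 GATA3 region (blue circles) and at least 3 (red squares) in each of 29 gene lists and in all protein-coding genes (y axis, number of genes in brackets); dotted lines mark all genes at 49.2% and 15.4%. T-cell lineage factors lie farthest right for at least 3 regions (88.5%). Cytosolic ribosomal protein genes are high for at least 1 (89.7%) and near all genes for at least 3 (11.5%).

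Regions at gene starts were weaker and more often shared than others. Within 1 kb of a start lay 3245 regions (11.2%), with a median signal value of 8.89. Of these, 90.1% overlapped a BHLHE40 region and 92.9% an H3K27ac region. The 13906 regions inside records but away from starts had a median of 11.6, with overlaps of 44.9% and 45.7%. Starts came from the promoter table, which covers 79.1% of protein-coding records and none on chromosome 8, so some start regions are counted as inside or outside ones.

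Farther outside the gene the signal value was similar and the overlaps were lower. The median signal value was 11.2 up to 10 kb outside, 11.9 from 10 to 50 kb, 11.8 from 50 to 100 kb and 11.9 for the 3579 regions with no gene in reach. The overlap with H3K27ac went from 46.0% to 43.2%, 39.9% and 35.9% over the same classes, and that with BHLHE40 from 46.6% to 42.9%, 41.1% and 37.2%. The intervals of the first and last class do not overlap for either. Inside records of 50 kb or more, summits lay in the first, middle and last parts of equal length in 41.3%, 30.8% and 27.9%. Farther than 5 kb from any start the shares were 34.2%, 34.2% and 31.6%.

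The share of regions at starts was 21.2% in the bottom decile of the list by signal value and 5.24% in the top one, with intervals that do not overlap. The overlap with BHLHE40 was 48.3% in the bottom decile, 34.6% in the fifth and 90.2% in the strongest. Without the regions at starts these were 36.4%, 27.8% and 90.1%, so the strong end was nearly the same and the weak end lower. Strong regions were also wider, with median widths of 513, 515.5 and 925 bp in these deciles over all regions. A wider region can meet the rule of 1 shared bp more easily, and the part of width in this rise was not tested.

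**Figure D5:**
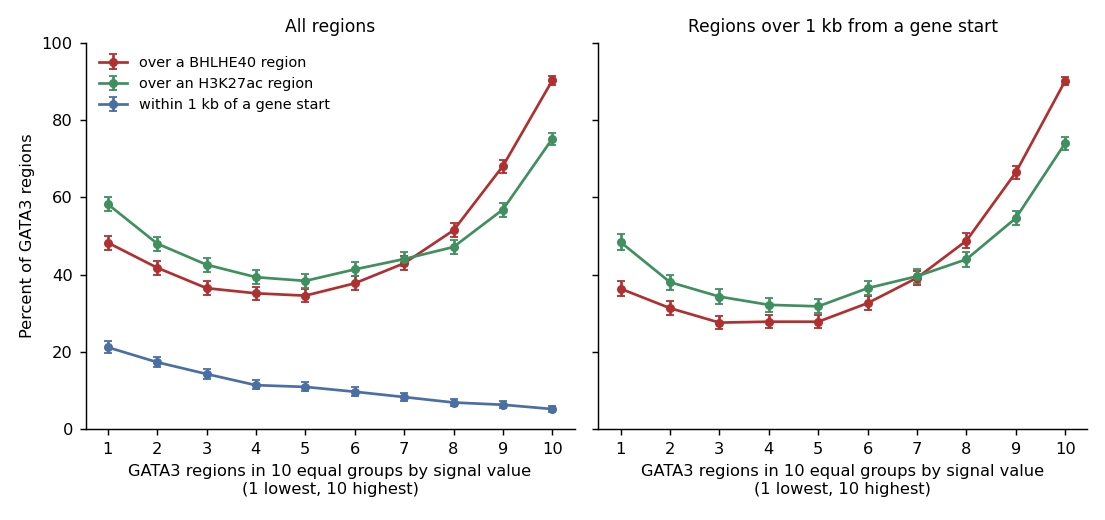
Percent of GATA3 regions (y axis) that overlap a BHLHE40 region (red), overlap an H3K27ac region (green) or lie within 1 kb of a gene start (blue), for deciles of the list by signal value (x axis, 1 lowest), over all regions (left) and without those at starts (right); error bars are 95% Wilson intervals. Overlap with BHLHE40 reaches 90.2% in the top decile, where 5.24% of regions are at starts. The median region width is 513 bp in the bottom decile and 925 bp in the top one.

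Whether regions at dense genes were more often shared depended on the starts and on the overlap rule. Over all regions, 52.3% of those at genes with 10 or more overlapped BHLHE40, against 54.1% at genes with 1, a difference of -1.79 percentage points (-3.88 to 0.297). Regions at starts made up 3.74% of the former and 28.7% of the latter. Without them the shares were 51.0% and 39.5%, a difference of 11.5 points (9.19 to 13.7). For H3K27ac the difference was -1.38 points (-3.47 to 0.704) over all regions and 13.3 (11.0 to 15.5) without starts. Leaving out starts was chosen after the data had been seen. When at least 50% of a GATA3 region had to overlap, with starts kept, the differences were -3.09 points (-5.18 to -0.997) for BHLHE40 and -9.73 (-11.7 to -7.71) for H3K27ac, and against H3K27ac regions whose −log10 q was 5 or more the latter was -7.95 (-9.97 to -5.92).

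The genes dense for GATA3 were largely dense in the other lists too. Of the 20 genes with most GATA3 regions, 14 were among the 20 with most BHLHE40 regions and 10 among the 20 with most H3K27ac regions, and all 20 were within the first 200 of both. BACH2 had 53 BHLHE40 regions, more than its 44 for GATA3, whereas KLF12 had 12 against 35 and ranked lower for BHLHE40. Across genes, the number of GATA3 regions rose with that of BHLHE40 (rank correlation 0.64) and of H3K27ac (rank correlation 0.65, n = 20037 genes), all 3 of which share gene size.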

How the data were processed

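Per the labels' protocols, formaldehyde-fixed and sonicated chromatin was pulled down with antibody CST-D13C9 against GATA3, or with antibodies against BHLHE40 or H3K27ac. The submitters' processing notes name bcl2fastq 2.20, MACS2 and hg38; the aligner, filters and use of input are not given in the sources used here. The deposited lists give, per region, a score, a signal value and a −log10 q-value. The score in the authors' GATA3 list runs from 540 to 1000, the range of the irreproducible discovery rate (IDR) scale on which 540 is a rate of 0.05 and 830 one of 0.01, and per the labels each factor list was filtered at 0.05. Such a filter keeps weak regions whose rank repeats. The H3K27ac list is named as pooled and has no such filter. The signal value, a deposited measure of enrichment of unstated reference, was used only within the list, and so were the deposited −log10 q-values. Read depth per sample is unknown, and nothing was tested between samples.

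Summits were assigned to the nearest of 20037 protein-coding RefSeq records (GRCh38.p14) within 100 kb. A summit inside several records (556) went to the one with the nearer end. 15 summits lay off the main chromosomes. Overlap meant at least 1 shared bp. The density divides regions by the genome nearest to a gene on a 1-kb grid. Genes named were the 20 with most regions, the 20 strongest regions, the leaders by summed signal and density, the strongest at record ends and, in each of 29 gene lists, the leading members and, in lists of 30 or fewer, those with none. Further members were named after their values were seen. A few members counted in the lists are not reported by name here. The regions, lists and this rule were chosen with earlier results of these data known. Promoter windows (22055 after identical ones were dropped) were searched for motifs on both strands; windows of a gene can overlap. The assignment was tested on simulated summits. Alternatives were other distances, a score of at least 830, all gene records, gene starts, merged summits, autosomes without the strongest 1%, other motifs and overlap rules. Software was Python 3.11.15 (pandas 2.3.3, numpy 2.4.6, scipy 1.17.1), and plots came from matplotlib 3.10.9.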

Additional observations from a re-analysis of the deposited data

How the results depend on the processing

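Of 76 alternative values over 12 results, 45 stayed within the error or the 1.5-fold range of the reported ones, 29 moved and 2 reversed in sign. Some of the 45 could not change, since the share of summits inside a protein-coding record does not depend on the distance or on starts. Summits assigned fell from 87.7% to 81.9% within 50 kb, 74.2% within 20 kb, 55.6% inside records only and 69.8% by nearest start, and were 98.8% with all gene records, of which 68.1% of summits were inside. The 283 genes with 10 or more regions became 158 inside records only, 183 at a score of at least 830 and 160 by nearest start. The share of regions in the 200 densest genes (13.0%) was 13.6% within 20 kb, 16.7% inside records only, 14.0% at a score of at least 830, 10.4% with all records and 12.4% by nearest start. T-cell lineage factors with at least 3 regions (88.5%) were 61.5% inside records only and 65.4% by nearest start. Of the 20 densest genes, 13 remained among the first 20 with all records, 8 by nearest start and 1 by density; of the 20 by summed signal, 12 and 7 remained under the first 2 of these and 11 on autosomes without the strongest 1%. CDK6 stayed first by number except with all records (CASC15) and by nearest start (ARID5B). Starts were at hand for 79.1% of protein-coding records and none on chromosome 8. Genes without one, among them TOX, ETS1, GNAQ and FLI1, could not be counted in any value by nearest start. The ratio of median signal value at starts to that inside records was 0.767 and became 0.785 with either record end. The difference in overlap between genes with 10 or more regions and with 1 was 11.5 points for BHLHE40 and 13.3 for H3K27ac without starts, reversed from -1.79 and -1.38; when at least 50% of the region had to overlap it was -3.09 for BHLHE40 and -9.73 for H3K27ac, and for the latter -7.95 against H3K27ac regions whose −log10 q was 5 or more. The share of promoter windows with AGATAA (11.3%) was 50.4% for GATA, 24.9% for the WGATAR motif, 14.5% at a score of at least 830 and 9.69% in windows with H3K27ac. No paired analysis was possible because the pair of samples in a group shares 1 list, and for the same reason no sample could be left out. Counting error, the rule for the nearest record and the unknown read depth limit these counts.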
